A study of Mus musculus with 4 samples.

Results

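The genes described here defend cells against oxidants: the Nfe2l2 regulator and its inhibitor, enzymes of glutathione, thioredoxin and peroxiredoxin cycles, superoxide dismutases, catalase, ferritin, metallothioneins, an exporter and cytochrome b5 reductases. A list of 47 mouse genes was given by symbol, and the rule uses measured values only to choose the probe set of a gene. A gene was measured through the probe sets that the platform annotation pairs with its symbol alone, and where several existed the brightest stood for it. By this rule 43 of the 47 were on the array, out of 12393 genes with such a probe set. Prdx1 and Ftl1 were represented only by probe sets paired with several genes, and Prdx5 and Prdx6 by no probe set in the annotation used here; these 4 were not analysed here.

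Samples came from Py-4-1, a mouse hemangioendothelioma line. The control group held 2 clones transfected with pcDNA, an expression plasmid, and the other group held 2 clones carrying pcDNA/Prox1, labelled as stably expressing Prox1, a transcription factor of lymphatic endothelium. Each clone was hybridised to 1 array, so that the group differences also hold differences between clones, cultures and RNA preparations, which cannot be told apart. Total RNA came from a nearly confluent dish, and in such bulk RNA fewer expressing cells and less transcript per cell cannot be told apart.

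The transcription factor Nfe2l2, often called Nrf2, is held in the cytoplasm by Keap1 and marked for destruction there. Oxidants and electrophiles modify Keap1, and Nfe2l2 then enters the nucleus, pairs with small Maf proteins and activates genes that carry antioxidant response elements. Many of these genes supply glutathione or thioredoxin, the thiol donors with which peroxidases, transferases and peroxiredoxins remove peroxides and reactive compounds. Metallothioneins bind zinc and copper and are controlled mainly by the metal-sensing factor Mtf1. In endothelium, Hmox1 is a widely used marker of the response to heme, shear and oxidants.

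On these arrays no member passed the test after adjustment over all probe sets tested, but the members did not all lie in 1 direction. Among genes known to depend on Nfe2l2, Hmox1, Gclm, Srxn1 and Abcc1 read lower in both Prox1-labelled clones than in both control clones. The share of all genes tested that did so was 23.2%. Of 15 tested Nfe2l2 targets outside the members, 8 had a negative change and 7 a positive one. The groups overlapped for Nqo1 and Fth1, and for Gstm1 on its brightest probe set but not on a dimmer one. Cyb5r1, Txn2 and Txnrd2 also read lower in both. Mt1, Mt2 and Txnip read higher in both. Nfe2l2 itself, catalase, the superoxide dismutases, ferritin heavy chain and most glutathione transferases differed little.

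Values are MAS5 intensities, the linear signal of a probe set, with every array scaled by the authors to a common mean. Changes are differences of group means of log2(intensity + 47), Prox1-labelled minus control, with the standard error of the limma fit. A level of 1 probe set is not set against that of another. A probe set was tested where it exceeded its array's median on at least 2 of 4 arrays, which left 37 members and 6949 genes in all. The threshold was an adjusted p of 0.05 over all 11656 probe sets tested. With 2 clones a group an exact permutation test cannot give a p under 0.333.

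As a check of the labels, Prox1 read 52.1 (clone 1) and 60.5 (clone 2) in controls against 62.4 and 44.3 in the Prox1-labelled pair, so its probe set did not separate the groups. Whether that probe set lies in the transfected sequence is not given in the sources used here. All 9 endothelial markers tested (12 listed) were on the positive side (median change 0.19), where 3535 of all 6949 genes tested were, 1 with an unadjusted p under 0.05 and 0 past the threshold in limma, and their summed intensity was 26823 and 33850 in controls and 37238 and 34765 in Prox1-labelled clones. The part of this in the members' differences was not tested. Of 10 leukocyte markers 2 were past the intensity filter, of 10 fibroblast and smooth muscle markers 2, and of 6 epithelial and 5 hepatocyte markers 0. The summed intensity of those other cell types lay from 1562 to 1971 in controls and 1568 to 1688 in Prox1-labelled clones for leukocytes, and from 628 to 1000.4 and 657 to 669.6 for fibroblasts and muscle. For epithelium the ranges were 343 to 487 and 391 to 460.0, and for hepatocytes 363 to 414 and 372 to 413.

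Promoters are shown for Gclm and Srxn1. Among members with a promoter sequence that were lower at an unadjusted p under 0.05 in limma, only their windows held letters matching an antioxidant response element. The windows of Txn2, Txnrd2 and Cyb5r1, also lower, held no such match and are not shown. Both metallothioneins are shown because they were higher at an unadjusted p under 0.05 in limma and their metal response elements are well known. Sequences are from RefSeq, build GRCm38.p6, from 250 bases before to 50 bases after the gene's start, 5′ to 3′. Of the 47 genes, 39 were matched, and Hmox1, Gclc, Gsr, Gsta4, Prdx6, Sod3, Abcc1 and Cyb5r3 were not. Capitals mark, in Gclm (chr3:122245307-122245606, plus strand) and Srxn1 (chr2:152105274-152105573, plus strand), the antioxidant response element core TGACNNNGC or its form TGAGTCAGC. In Mt1 (chr8:94178839-94179138, plus strand) and Mt2 (chr8:94172368-94172667, plus strand) they mark the metal response element core TGCGCNC or TGCACNC. Both strands were searched for each motif.
Gclm: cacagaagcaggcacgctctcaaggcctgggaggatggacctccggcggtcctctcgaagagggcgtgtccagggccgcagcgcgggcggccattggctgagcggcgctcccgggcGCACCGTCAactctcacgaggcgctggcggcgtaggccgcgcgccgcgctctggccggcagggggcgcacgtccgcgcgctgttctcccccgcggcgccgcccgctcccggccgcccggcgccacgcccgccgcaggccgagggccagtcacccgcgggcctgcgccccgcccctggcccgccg
Srxn1: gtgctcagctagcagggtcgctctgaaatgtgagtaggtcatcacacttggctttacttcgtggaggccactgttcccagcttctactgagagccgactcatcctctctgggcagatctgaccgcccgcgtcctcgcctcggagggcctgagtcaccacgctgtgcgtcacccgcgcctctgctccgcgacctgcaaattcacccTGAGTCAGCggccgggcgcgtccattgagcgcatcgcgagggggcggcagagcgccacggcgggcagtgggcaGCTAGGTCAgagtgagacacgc
Mt1: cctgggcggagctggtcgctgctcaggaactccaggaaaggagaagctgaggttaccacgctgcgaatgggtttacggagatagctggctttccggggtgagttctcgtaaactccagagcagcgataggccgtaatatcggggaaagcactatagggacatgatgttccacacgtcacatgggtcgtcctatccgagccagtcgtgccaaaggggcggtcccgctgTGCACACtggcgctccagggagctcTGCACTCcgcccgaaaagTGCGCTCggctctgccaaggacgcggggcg
Mt2: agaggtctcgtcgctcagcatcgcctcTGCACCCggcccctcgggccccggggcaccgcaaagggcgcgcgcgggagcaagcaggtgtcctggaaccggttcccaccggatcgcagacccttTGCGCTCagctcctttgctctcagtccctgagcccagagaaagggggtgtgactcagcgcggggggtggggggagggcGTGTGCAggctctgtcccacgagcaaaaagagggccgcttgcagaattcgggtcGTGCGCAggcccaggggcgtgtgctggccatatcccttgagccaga

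The window of Gclm held TGACNNNGC 1 time, on the minus strand at -134 to -126 from the start, where it overlaps a match of TGCGCNC at -138 to -132 that is not capitalised. Srxn1 held TGAGTCAGC at -45 to -37 and TGACNNNGC on the minus strand at 29 to 37. TGACNNNGC was in 12.4% of all 32851 windows of this length and TGAGTCAGC in 0.414%. Among members, TGACNNNGC was also found in windows of Nfe2l2, Prdx1, Gstm5, Mgst1, Mt2, Txnrd1 and Sod1, and TGAGTCAGC in that of Gstp1. The windows of Mt1 and Mt2 held 3 and 4 matches of the metal response element core, and that of Gclm, a lower member, also held 3, at -138 to -132, -72 to -66 and 28 to 34. At least 1 match of either form was in the windows of 12 of the 39 members matched, the lower members Gclm, Srxn1 and Txnrd2 among them, and in 25.7% of all windows. The share of all windows with 3 or more was 1.97%. A match describes letters in the window and is no sign of binding.

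Of the 37 members tested, 0 passed the threshold in limma, against 8 of 6949 genes, or 0.115%. At an unadjusted p under 0.05 there were 7 lower members, or 18.9%, where 6.13% of all genes were lower, and 3 higher members, or 8.11%, where the share of all genes was 8.22%. In 14 members both Prox1-labelled clones read below both controls, and in 9 above, while for all genes each direction had 23.2%. The median change of the 37 members was 0.027 and that of all genes tested 0.0072. A total of 36 of the 37 were above the median of all 4 arrays. Txnrd2 was the exception and passed the filter through the control clones alone, so that its difference is partly built into the filter.

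**Figure D1:**
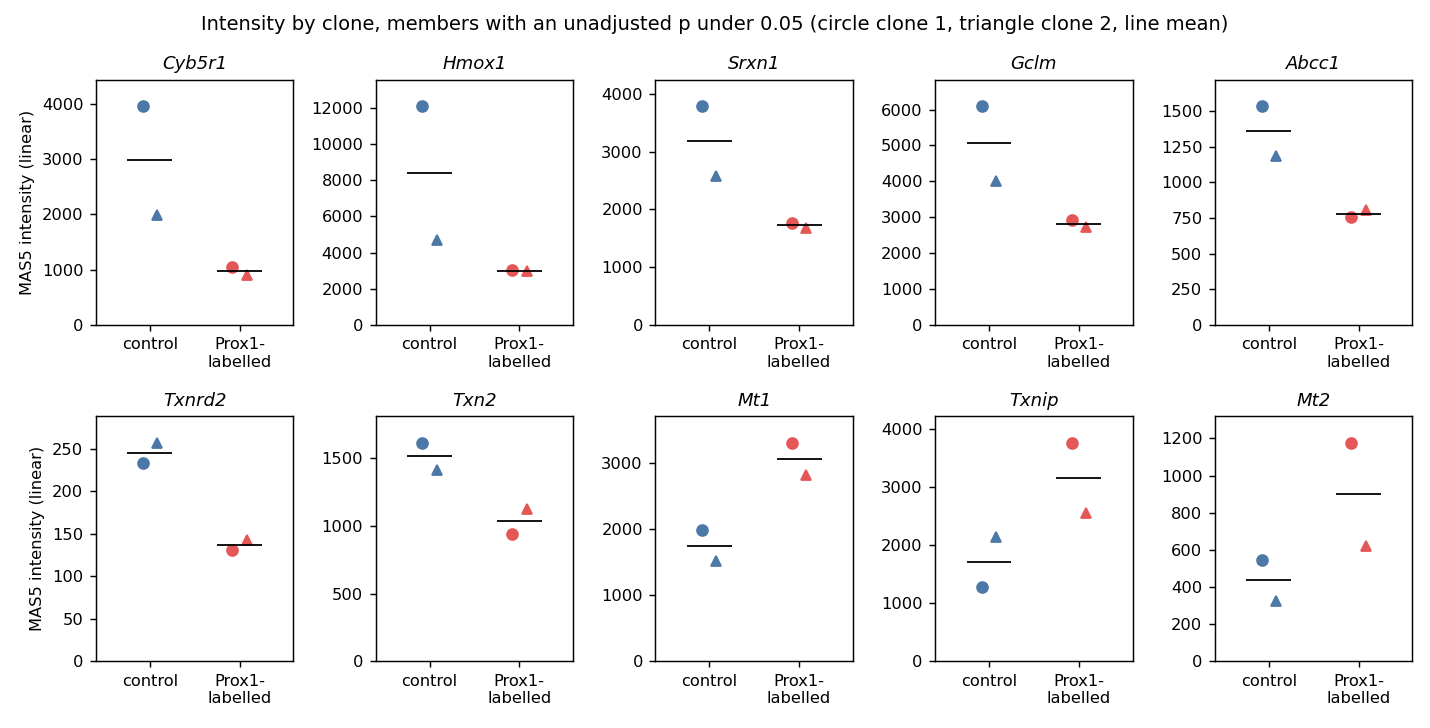
MAS5 intensity on a linear axis from 0 in each of the 4 clones, for the 10 members with an unadjusted p under 0.05. Circles are clone 1, triangles clone 2 and lines the mean of 2 clones. The groups do not overlap in any of the 10 panels, and control clone 1 of Hmox1 at 12127 stands far above control clone 2 at 4709.

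Values are given below for clone 1 and then clone 2 of the controls, against clone 1 and clone 2 of the Prox1-labelled group. Nfe2l2 read 3956 and 3957 against 4233 and 4775. The Prox1-labelled clones lay slightly above the controls (log2 change 0.18 ± 0.17, limma adjusted p = 0.680; from 0.096 to 0.27 on leaving out 1 clone). Keap1, the adaptor that targets Nfe2l2 for degradation, read 677 and 634 against 488 and 509. Both Prox1-labelled clones were lower, and the change of -0.36 ± 0.19 did not pass (limma adjusted p = 0.413). The dimmer probe set of Keap1 gave -0.20 with overlapping groups.

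Hmox1, which encodes the inducible heme oxygenase, came next to Cyb5r1 in the size of its change among the 37 members tested. It read 12127 and 4709 against 3015 and 2959. The Prox1-labelled clones were almost equal, while control clone 1 was far above control clone 2. The change was -1.33 ± 0.36, a 2.51-fold lower level (unadjusted p = 0.00503, limma adjusted p = 0.175). It was -0.65 without control clone 1 and -2.0 without control clone 2, so the size rests on which control is used. Hmox2, the constitutive heme oxygenase, read 859 and 1544 against 989.6 and 1654 (0.15, limma adjusted p = 0.874). Nqo1, a quinone reductase that is a textbook target of Nfe2l2, read 1021 and 1296 against 1131 and 1269. Its groups overlapped, and its change of 0.056 ± 0.20 had a limma adjusted p of 0.932.

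Of all genes, 23.2% read lower in both Prox1-labelled clones. The 4 genes that make glutathione or return it to its reduced form all did so on their brightest probe sets. None passed the threshold in limma (0 of 4, 1 with an unadjusted p under 0.05), and their median change was -0.45. Gclm, the modifier subunit of the rate-limiting ligase, read 6099 and 4014 against 2916 and 2714. Control clone 1 was again highest and the Prox1-labelled clones were close together (-0.80 ± 0.22, 1.75-fold lower, unadjusted p = 0.00523, limma adjusted p = 0.178). The change was -0.51 without control clone 1 and -1.10 without control clone 2. Gclc, the catalytic subunit of the same ligase, read 1574 and 854 against 853 and 707. The groups are separated only by the narrow gap between 854 and 853 (-0.55 ± 0.28, limma adjusted p = 0.400), and the change was -0.13 without control clone 1 and -0.98 without control clone 2.

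Gss, the glutathione synthetase that adds glycine, read 321 and 293 against 208 and 279 (-0.29 ± 0.22, limma adjusted p = 0.589). Its change was -0.11 without Prox1-labelled clone 1 and -0.47 without Prox1-labelled clone 2. Gsr, which reduces oxidised glutathione with NADPH, read 1313 and 1419 in controls and 1061 in each Prox1-labelled clone (-0.35 ± 0.18, limma adjusted p = 0.414). Its dimmer probe set read 1441 and 1392 against 846 and 1025 and gave -0.58 (limma adjusted p = 0.233). Control clone 1 was not the higher control on the brighter probe set of Gsr, unlike in the other 3 genes.

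The glutathione peroxidases and transferases among the members tested lay near or above 0 on their brightest probe sets. Gpx1, the main cytosolic peroxidase, read 2273 and 2278 against 2764 and 2611. Both Prox1-labelled clones were above the nearly equal controls (0.23 ± 0.17, limma adjusted p = 0.583). Gpx4, which reduces lipid peroxides, read 5181 and 4652 against 5121 and 5260.1, with overlap (0.079, limma adjusted p = 0.871), and its dimmer probe set gave -0.18. Gpx3, the secreted form, read 14.3 to 29.5 over the 4 arrays and Gpx7, an endoplasmic reticulum form, 40.1 to 59.1. Gpx3 lay on each array under the brightest of 27 Bacillus spike probe sets, for bacterial genes absent from mouse, and Gpx7 exceeded it on 1 array.

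All 7 glutathione transferases past the filter (10 listed) lay on the positive side (median change 0.25), where 3535 of all 6949 genes did, and 0 passed the threshold or had an unadjusted p under 0.05 in limma. In 3 of the 7 both Prox1-labelled clones were above both controls, as in 23.2% of all genes. Gstm2, a mu-class transferase, read 847 and 1106 against 1251 and 1241 (0.35 ± 0.20, limma adjusted p = 0.466). Gsto1, an omega-class thiol transferase, read 7209 and 7659.5 against 7871 and 8455 (0.13, limma adjusted p = 0.762). Gstp1, the pi-class enzyme, read 1927 and 1747 against 1969.9 and 2046 (0.13, limma adjusted p = 0.799). In these 3 genes the change was under 2 standard errors. For Gstm2 it became 0.165 when control clone 1 was left out and 0.53 when control clone 2 was. For Gstp1 it was 0.058 without control clone 2. For Gsto1 it was 0.082 without Prox1-labelled clone 2.

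Gstm1 read 227 and 537 against 472 and 491. Control clone 1 alone was low, and the change of 0.40 ± 0.32 (limma adjusted p = 0.622) became -0.14 without that clone and 0.95 without control clone 2. The microsomal transferase Mgst3 had the same shape, with 320.1 and 719.7 against 659 and 513 (0.25, -0.29 without control clone 1 and 0.78 without control clone 2). Mgst1, another microsomal form, read 1415 and 2453 against 1695 and 2907. Here clone 2 was above clone 1 in both groups (0.25, limma adjusted p = 0.776). Gstm5 read 701 to 789.6 over the 4 arrays (0.0062, and -0.020 under quantile normalization and -0.039 under median centring). Gsta4 read 15.1 to 26.4, Gstt1 16.9 to 79.4 and Mgst2 20.0 to 121. All 3 were below the filter, and each was above the brightest Bacillus spike probe set on at most 1 array. Mu-class transferases are close paralogs, and probe sets with the suffix x_at, as the brightest of Gstm1, can hold signal of more than 1 of them. A dimmer probe set of Gstm1 without that suffix read 140 and 247 against 338 and 260. There both Prox1-labelled clones were above both controls (0.55, limma adjusted p = 0.386).

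**Figure D2:**
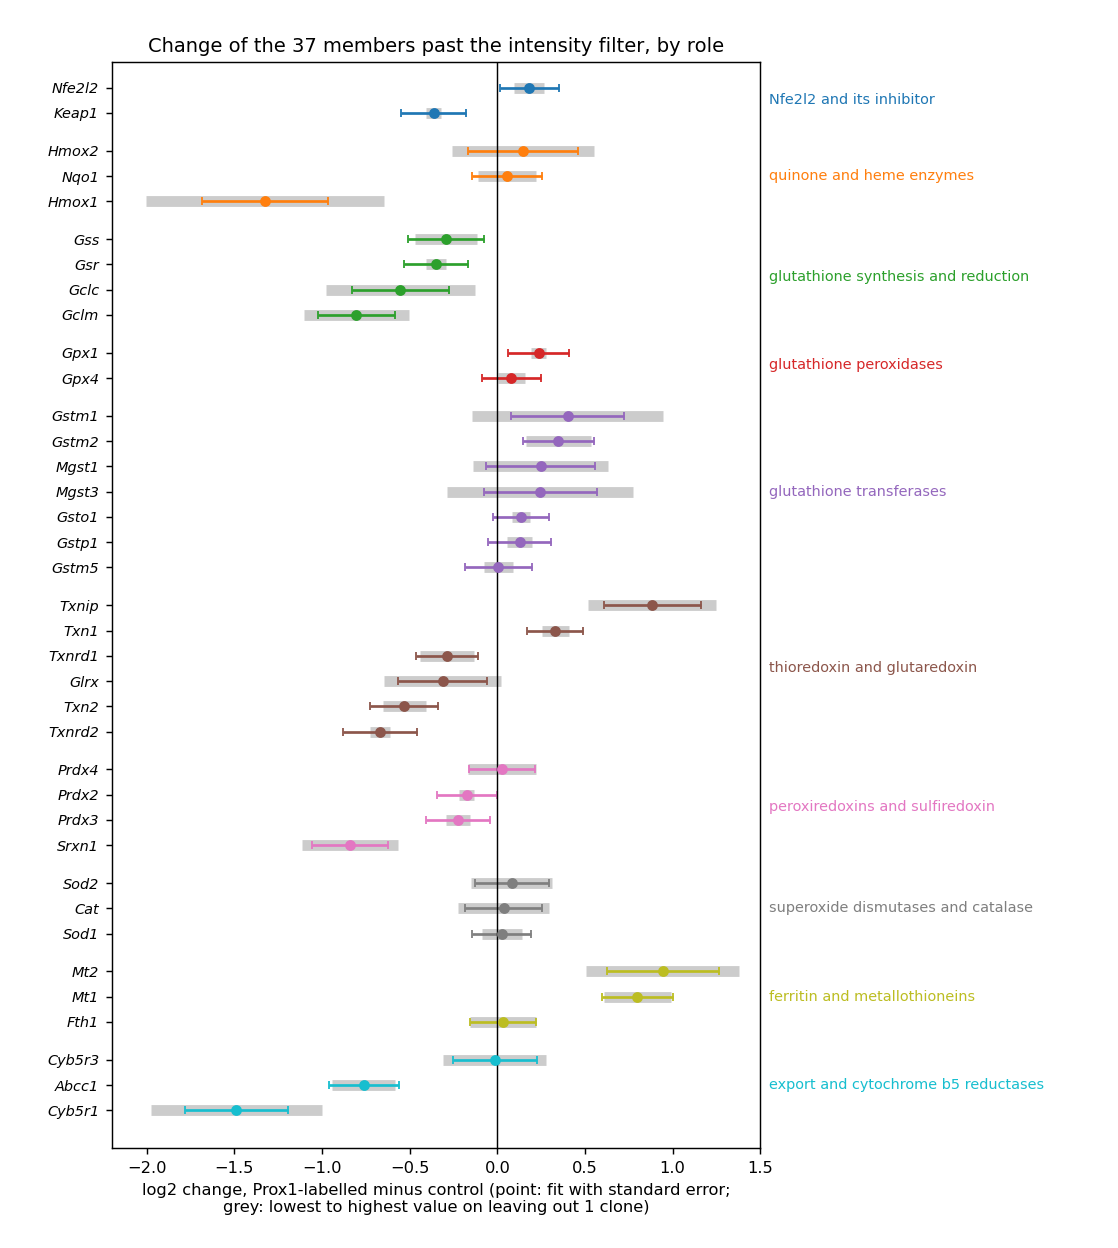
Log2 change (Prox1-labelled minus control, horizontal axis) of the 37 members tested, grouped and coloured by role. Points carry the standard error of the fit, and grey bands run from the lowest to the highest value on leaving out 1 clone. The 4 genes of glutathione synthesis and reduction lie to the left of 0 and the 7 transferases to the right, and the bands of Hmox1 (-2.0 to -0.65) and Cyb5r1 (-1.98 to -1.0) are among the widest.

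Members of the thioredoxin system lay on both sides of 0. Txn1, cytosolic thioredoxin, read 7645 and 6879 against 9179.6 and 9088. The Prox1-labelled clones were above both controls (0.33 ± 0.16, limma adjusted p = 0.385). Txnrd1, the cytosolic reductase and an Nfe2l2 target, read 8832 and 7108 against 6145 and 6837 and lay on the other side (-0.29 ± 0.18, limma adjusted p = 0.501). Its change was -0.13 without control clone 1 and -0.44 without control clone 2.

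Txn2, the mitochondrial thioredoxin, read 1611 and 1408 against 939 and 1122. Both Prox1-labelled clones were lower (-0.53 ± 0.19, 1.45-fold lower, unadjusted p = 0.0225, limma adjusted p = 0.266). Its other probe sets read 1552 and 844 against 591 and 705, a change of -0.79, and 1958 and 1045 against 398 and 512, a change of -1.57 (limma adjusted p = 0.104). All 3 thus lay on 1 side, and the x_at probe set had a larger change than the other two. Txnrd2, the mitochondrial reductase, read 233 and 257 against 130.3 and 143. The groups were clearly apart and control clone 2 was the higher control (-0.67 ± 0.21, 1.59-fold lower, unadjusted p = 0.0119, limma adjusted p = 0.220). As Txnrd2 passed the filter through the control clones alone, this difference is partly built into the filter.

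Txnip, which binds and inhibits thioredoxin and is induced by glucose, read 1274 and 2146 against 3758 and 2546. Clones within each group were well apart, yet both Prox1-labelled clones were above both controls (0.88 ± 0.28, 1.85-fold higher, unadjusted p = 0.0110, limma adjusted p = 0.220). The dimmer probe set gave 0.59 (limma adjusted p = 0.282). The change of the brighter one was 0.52 without control clone 1 and 1.25 without control clone 2. Glrx, glutaredoxin, read 311 and 523 against 299 and 336, with overlap (-0.31, or 0.022 without control clone 2).

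Peroxiredoxins, the thiol peroxidases, read slightly lower or level, and sulfiredoxin, which repairs them once they are over-oxidised, read lower. Prdx2, a cytosolic form, read 2842 and 2679 against 2448 and 2431 (-0.17 ± 0.17, limma adjusted p = 0.701). Prdx3, the mitochondrial form, read 1973 and 1784 against 1529 and 1671 (-0.22 ± 0.18, limma adjusted p = 0.624). Both were below the controls in both Prox1-labelled clones by amounts close to their standard errors. Prdx4, the form of the endoplasmic reticulum, read 5051 and 3848 against 4681 and 4309.7 (0.027, and -0.018 under median centring). One of its dimmer probe sets gave 0.48 (limma adjusted p = 0.326), so that its size depends on the probe set.

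Srxn1, the sulfiredoxin gene, read 3791 and 2574 against 1767 and 1685. The order of the 4 arrays was that of Gclm and Hmox1 (-0.84 ± 0.22, 1.79-fold lower, unadjusted p = 0.00376, limma adjusted p = 0.168). The change was -0.56 without control clone 1 and -1.11 without control clone 2. Another 3 probe sets lay on the same side, at -1.26 (4279 and 2630.3 against 1314 and 1433, limma adjusted p = 0.114), -0.79 and -0.35. All 4 probe sets of Srxn1 thus had groups that did not overlap.

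For enzymes that remove superoxide and peroxide directly, the groups overlapped on the brightest probe set of each gene tested. Sod1, the cytosolic copper-zinc dismutase, read 6391 and 5985 against 6811 and 5814 (0.025 ± 0.17, limma adjusted p = 0.967). On its dimmer probe set it read 193 and 226 against 169 and 179, without overlap (-0.21, limma adjusted p = 0.713). Sod2, the mitochondrial manganese dismutase, read 1083 and 773 against 965 and 979 (0.082 ± 0.21, limma adjusted p = 0.901). Cat, catalase, read 839 and 836 against 710.3 and 1038 (0.036 ± 0.22, limma adjusted p = 0.963), with the Prox1-labelled clones on either side of the controls. The other probe set of Cat read 899 and 1064 against 594 and 892, so that there both Prox1-labelled clones were lower (-0.40, limma adjusted p = 0.466). Sod1 and Cat turned to -0.020 and -0.0090 under median centring. Sod3, the secreted dismutase, read 15.9 to 17.2 on the 4 arrays, under the brightest Bacillus spike probe set on each.

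Both metallothioneins read higher in both Prox1-labelled clones. Mt1 read 1992 and 1517 against 3315 and 2823. The groups were well apart, and clone 1 was above clone 2 in each (0.80 ± 0.20, 1.74-fold higher, unadjusted p = 0.00337, limma adjusted p = 0.166). Leaving out 1 clone gave changes from 0.61 to 0.99. Mt2 read 545 and 326 against 1177 and 621, with the same order of clones (0.94 ± 0.32, 1.92-fold higher, unadjusted p = 0.0161, limma adjusted p = 0.241). Its change ran from 0.51 without Prox1-labelled clone 1 to 1.38 without Prox1-labelled clone 2. Mt1 and Mt2 are close paralogs, and the probe set of Mt1 has a suffix (s_at) for probes that can match several transcripts. The 2 values may therefore share signal. Without probe sets of that kind Mt1 was left with a probe set below the filter, at 26.4 and 11.2 against 44.6 and 40.6.

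Fth1, ferritin heavy chain, which stores iron in oxidised form and is also an Nfe2l2 target, read 22749.9 and 17468 against 23048 and 18041. Clone 1 was above clone 2 in both groups and the groups overlapped (0.033 ± 0.19, limma adjusted p = 0.961, and -0.012 under median centring).

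Abcc1, an exporter of glutathione conjugates, read 1537 and 1188 against 754 and 803. Both Prox1-labelled clones were well below both controls (-0.76 ± 0.20, 1.69-fold lower, unadjusted p = 0.00433, limma adjusted p = 0.174), and its other probe set gave -0.58 (limma adjusted p = 0.236). The change was -0.58 without control clone 1 and -0.94 without control clone 2. Cyb5r1, a flavin reductase of the cytochrome b5 reductase family, had the largest change of the 37 members tested. It read 3965 and 1989 against 1053 and 895, with control clone 1 again highest (-1.49 ± 0.30, 2.81-fold lower, unadjusted p = 0.000707, limma adjusted p = 0.128). Its change was -1.0 without control clone 1 and -1.98 without control clone 2. Cyb5r3, the main family member of the endoplasmic reticulum, read 6246 and 9409 against 9057 and 6365, with 1 high and 1 low clone in each group (-0.014, and 0.015 under quantile normalization).

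Control clones 1 and 2 differed from each other in many of these genes. In 6 of the 7 lower members the order was control clone 1, then control clone 2, then both Prox1-labelled clones, and Txnrd2 was the exception. That order was also seen in 64.6% of the 426 genes that were lower at the same unadjusted p, so it was not confined to these genes. Over the 37 members the median of control clone 2 minus control clone 1 was -0.094, against 0.064 for all genes, and in 18 members, or 48.6%, the gap between the controls was larger than the change between groups, against 56.7% of all genes. Control clone 2 was below control clone 1 in 22 of the 37 and in 3004 of all 6949 genes. Mt1 and Mt2 were among the 22, and in both control clone 1 was the nearer control to the Prox1-labelled clones.

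**Figure D3:**
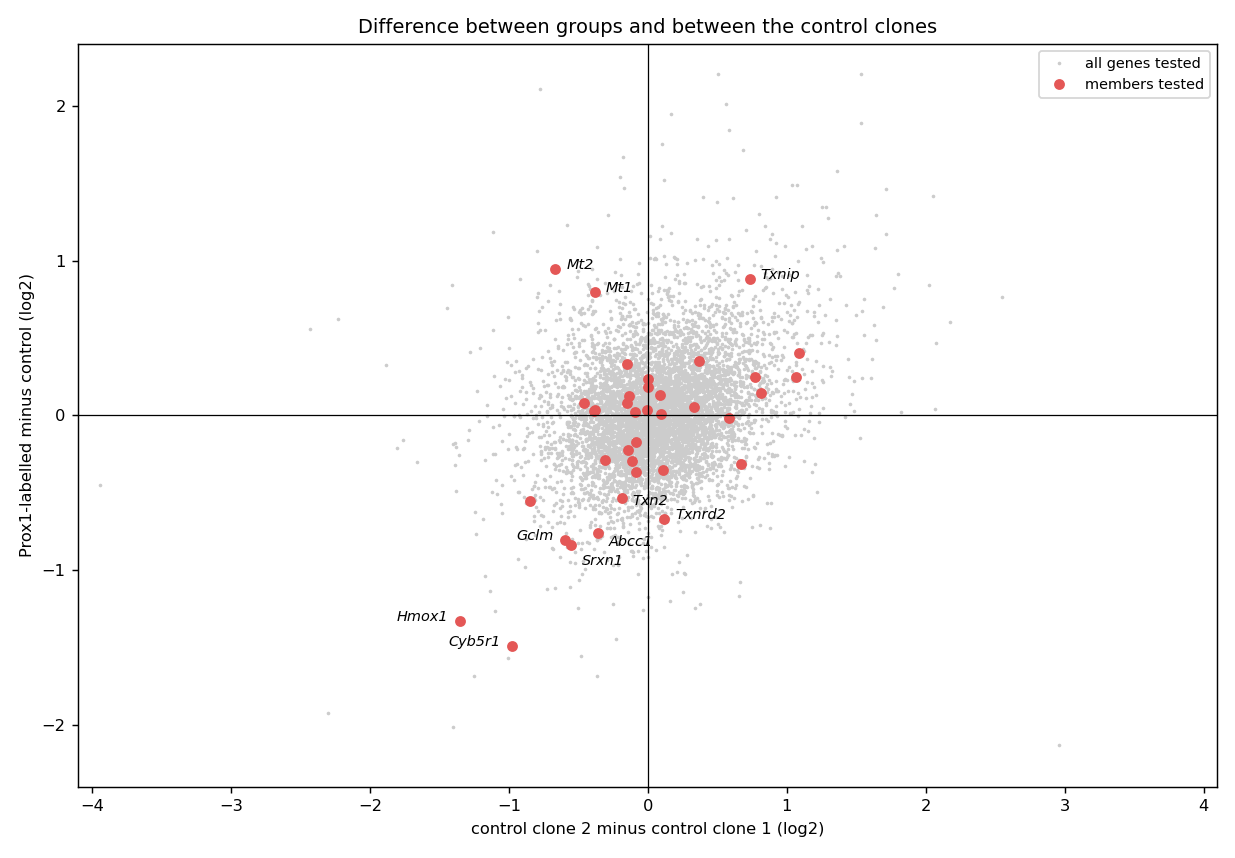
Change between groups (log2, vertical axis) against control clone 2 minus control clone 1 (log2, horizontal axis) for the 37 members (red) and all 6949 genes tested (grey), with the 10 members of unadjusted p under 0.05 named. Hmox1, Cyb5r1, Srxn1, Gclm, Abcc1 and Txn2 lie at the lower left, where control clone 2 reads below control clone 1, and Mt1 and Mt2 at the upper left.

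A total of 19 members had several probe sets past the filter. In 14 of them all probe sets had a change of 1 sign, and these held Srxn1, Txn2, Abcc1, Gclc, Gsr, Txnrd1, Keap1, Txnip and Gstm1. In the other 5, Gpx4, Sod1, Sod2, Cat and Cyb5r3, the signs differed, and the change of the brightest probe set was 0.082 or less in size. Of 62 member probe sets past the filter 0 passed the threshold in limma, the smallest adjusted p being 0.104 for Txn2.

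**Figure D4:**
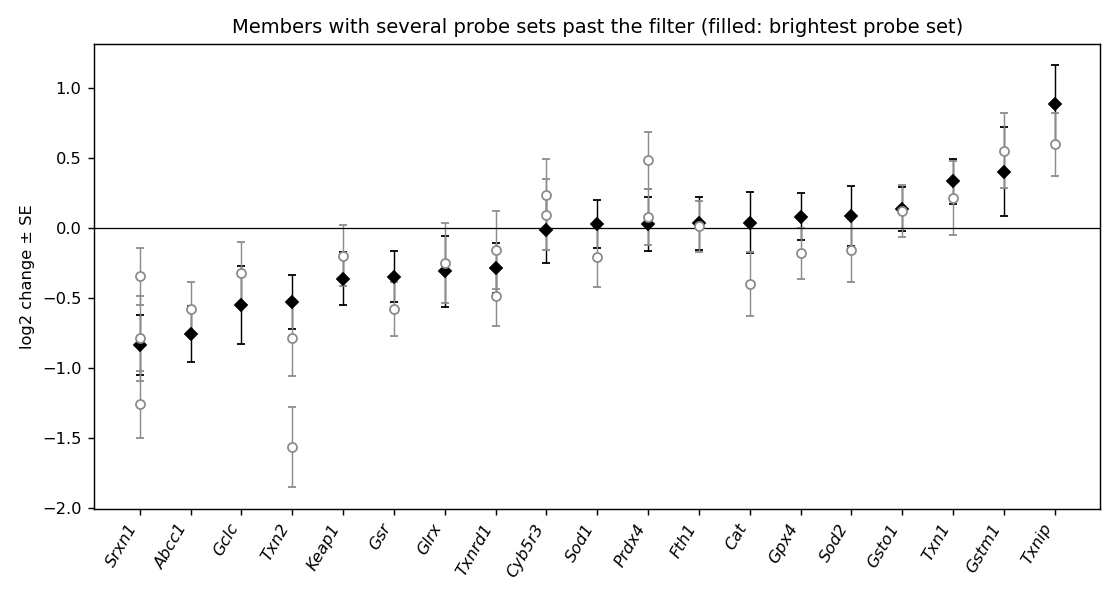
Log2 change with standard error of each probe set past the filter for the 19 members that had several, ordered by the brightest one (filled diamonds; open circles are the other probe sets). The 4 probe sets of Srxn1 and the 3 of Txn2 all lie under 0, from -1.26 to -0.35 and from -1.57 to -0.53.

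Other genes of the pathway were read from 5 further lists, and 0 of their members passed the threshold in limma. Over all genes tested, 3414 of 6949 changes were negative, and 6.13% were lower and 8.22% higher at an unadjusted p under 0.05. Of 10 tested partners and regulators of Nfe2l2 (12 listed), 8 had a negative change, with a median of -0.29, and 2 were lower and 0 higher at an unadjusted p under 0.05. Mafg, a small Maf partner of Nfe2l2, read 890.4 and 719 against 428 and 366 (-0.94, limma adjusted p = 0.133). Sqstm1, the autophagy receptor that binds Keap1, read 12785 and 9013 against 8146 and 6682 (-0.54, limma adjusted p = 0.288). Bach1, a repressor at the same elements, gave -0.50 and Dpp3, a Keap1-binding peptidase, -0.46 (limma adjusted p = 0.368 and 0.445). Mafg and Sqstm1 are themselves known to be induced by Nfe2l2.

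Of 15 tested Nfe2l2 targets outside the members (28 listed), 3 were lower and 1 higher at an unadjusted p under 0.05, with 8 negative changes and a median of -0.055. Slc7a11, the cystine transporter that feeds glutathione synthesis, read 588 and 543 against 268 and 302 (-0.88, limma adjusted p = 0.140). In contrast to Gclm, its control clones were close to each other. The oxidative stress-induced gene Osgin1 gave -0.55 and Blvrb, a biliverdin reductase, -0.44 (limma adjusted p = 0.288 and 0.330). Ugdh, which makes UDP-glucuronate, read 862 and 839 against 1340.0 and 1047 and lay higher (0.46, limma adjusted p = 0.337).

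Of 20 further glutathione, glutaredoxin and methionine sulfoxide enzymes tested (35 listed), 12 were on the positive side (median change 0.052), and 1 was higher and 2 lower at an unadjusted p under 0.05. Ggct, a cyclotransferase of glutathione breakdown, read 137 and 156 against 303 and 282 (0.81, limma adjusted p = 0.169). Since Ggct passed the filter through the Prox1-labelled clones alone, its difference is partly built into the filter. Gpx8, a peroxidase of the endoplasmic reticulum, read 795 and 575 against 406 and 324 (-0.82, limma adjusted p = 0.180). Txnl1, a thioredoxin-like protein of the proteasome, gave -0.56 (limma adjusted p = 0.203), and Sesn3, a sestrin, 0.45 (limma adjusted p = 0.421).

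Of 9 tested sources of superoxide and peroxide (20 listed), 1 was higher and 2 lower at an unadjusted p under 0.05, with a median of -0.080. Nox4, the hydrogen peroxide-producing NADPH oxidase of endothelium, read 162 and 168 against 334 and 245 (0.65, limma adjusted p = 0.248). It passed the filter through the Prox1-labelled clones alone, so that its difference is partly built into the filter. Cyba, the membrane partner of Nox4, read 3306 and 2336 against 1716 and 1951 and lay on the other side (-0.59, limma adjusted p = 0.264). Ero1b, a disulfide oxidase of the endoplasmic reticulum, gave -0.86 (limma adjusted p = 0.174) and Qsox1, a secreted sulfhydryl oxidase, 0.47 (limma adjusted p = 0.394).

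Of 9 tested genes of metal handling (15 listed), 1 was higher and 1 lower at an unadjusted p under 0.05, with a median of -0.052. Slc40a1, the iron exporter ferroportin, read 1477 and 1307 against 905 and 1034 (-0.50, limma adjusted p = 0.282). Aco1, an iron-sensing RNA-binding aconitase, gave 0.52 (limma adjusted p = 0.315), the metal importer Slc39a14 -0.40 and the iron transporter Slc11a2 0.34 (limma adjusted p = 0.449 and 0.484). Mtf1, the factor that drives metallothionein genes, gave -0.28 ± 0.20 (limma adjusted p = 0.573) and was named after its value was seen. Its relation to Mt1 and Mt2, which were higher, was not tested.

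**Figure D5:**
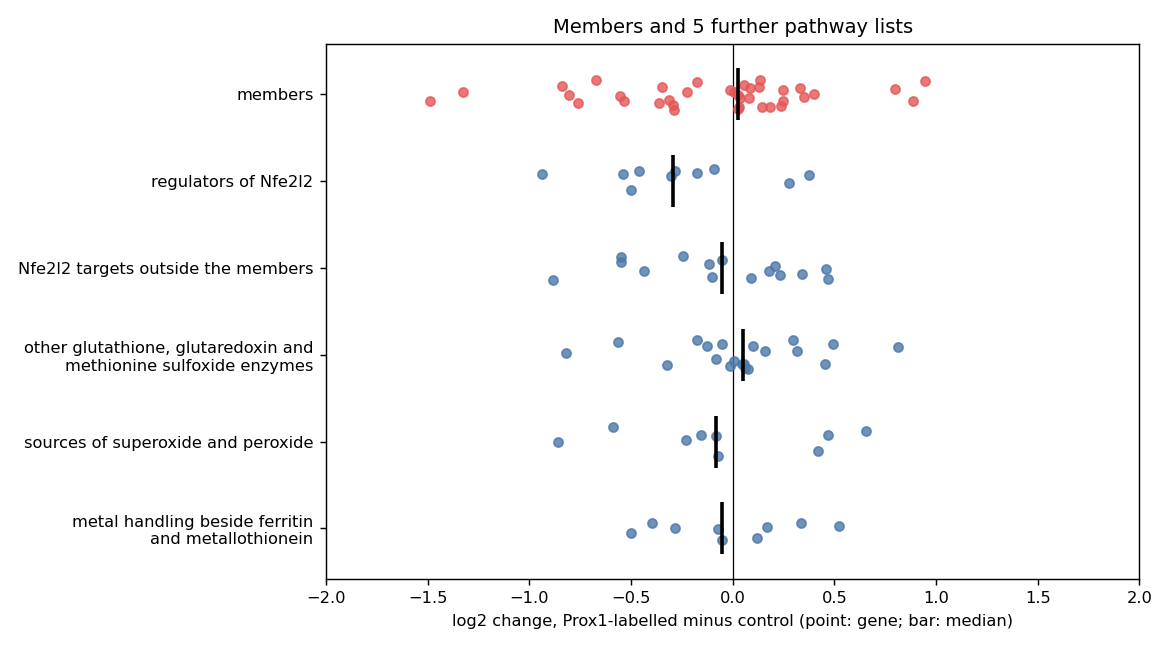
Log2 change (horizontal axis) of the 37 members tested (red) and of genes of 5 further pathway lists (blue), 1 point a gene, with the median as a bar. Medians are 0.027 for the members, -0.29 for regulators of Nfe2l2 and from -0.080 to 0.052 for the other 4 lists, and points of each list lie on both sides of 0.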

How the data were processed

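Expression was measured in 2 control and 2 Prox1-labelled Py-4-1 clones, 1 one-colour array each, grouped by sample title. The file deposited by the authors gives linear intensities, 1 per probe set and array. Per the submitters' processing notes they were made with MAS5, whose version is not given in the sources used here. Their mean after trimming 2% at each end was 500.0 on all 4 arrays, and no further normalization was applied. Detection calls were not used, and the number of arrays limits the precision.

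The 64 Affymetrix control probe sets were left out. Of the others, 20380 had 1 gene in the platform annotation, 691 had several genes and 1555 had no gene, and 0 symbols needed updating to RefSeq (GRCm38.p6). Values were analysed as log2(intensity + 47), 47 being the 25th percentile of all values, which understates changes of dim probe sets. Probe sets above their array's median on 2 of 4 arrays were fitted together with limma 3.58.1 in R 4.3.3 (lmFit, eBayes with intensity trend, 2-sided, Benjamini-Hochberg), and 12 of 11656 passed. The procedure was tested on simulated data with changes larger than any seen in the members, which does not show how it performs at smaller ones. Log2 changes of members come from this fit.

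The rule for members uses symbols alone, but the members, lists and tests were chosen with earlier results of these data known. All members were named. Of each further list the 4 genes with the smallest unadjusted p were named, and Mtf1 besides. Alternatives were quantile normalization, median centring, other pseudocounts (none, and 173), the filter dropped or raised to the 75th percentile, a variance model that was robust or had no trend, a block for clone number, omission of each clone, omission of x_at and s_at probe sets, and the mean over the probe sets of a gene.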

Additional observations from a re-analysis of the deposited data

How the results depend on the processing

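Of the 37 members tested, 23 kept the sign of their change under each of the 15 alternatives that gave a value (14 for Gss, Txnrd2 and Mt1, which fell below the filter in 1 of them) and 14 did not, the latter all with a change of 0.40 or less in size. The values that turned without leaving out a clone were Gstm5 (-0.020) and Cyb5r3 (0.015) under quantile normalization, Gstm5 (-0.039), Prdx4 (-0.018), Sod1 (-0.020), Cat (-0.0090) and Fth1 (-0.012) under median centring, Cyb5r3 (0.23) without x_at and s_at probe sets, and Gpx4 (-0.053), Sod1 (-0.093), Sod2 (-0.040), Cat (-0.18) and Cyb5r3 (0.10) with the mean over probe sets. On leaving out a clone the ranges were -0.11 to 0.22 for Nqo1, -0.26 to 0.55 for Hmox2, -0.14 to 0.95 for Gstm1, -0.074 to 0.087 for Gstm5, -0.14 to 0.63 for Mgst1, -0.29 to 0.78 for Mgst3 and -0.65 to 0.022 for Glrx. They were -0.17 to 0.22 for Prdx4, -0.089 to 0.14 for Sod1, -0.15 to 0.31 for Sod2, -0.22 to 0.30 for Cat, -0.16 to 0.22 for Fth1 and -0.31 to 0.28 for Cyb5r3. The cause was not tested.

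The count of probe sets past the threshold was 12 as reported, 4 under quantile normalization, 7 with the robust variance model and 0 without the filter (limma, with 2300 at an unadjusted p under 0.05). Leaving out a clone gave 42 to 1150 probe sets and 1 to 9 members past the threshold, 6 to 15 members at an unadjusted p under 0.05, and a median change from -0.13 to 0.0025. The 9 came without control clone 2 and were Hmox1, Gclc, Gclm, Srxn1, Abcc1 and Cyb5r1 (lower) and Gstm1, Mgst3 and Txnip (higher). Without control clone 1 Mt1 and Cyb5r1 passed, without Prox1-labelled clone 1 Cyb5r1, and without Prox1-labelled clone 2 Mt2 and Cyb5r1. In these fits 1 group is a lone array, assumed to vary like the other. With the clone number as a replicate block 110 probe sets and 2 members passed, Hmox1 (adjusted p = 0.0247) and Cyb5r1 (adjusted p = 0.00799). Over the probe sets tested, same-numbered clones did not deviate together (correlation -0.0091). The sample titles give only the number, and whether same-numbered clones were handled together was not tested. In the remaining alternatives 0 members passed in limma, with 9 to 11 at an unadjusted p under 0.05.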
